A study of Mus musculus with 32 samples.

Results

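The IL-1 receptor family was described here through 5 genes, Il1rl1, Il18r1, Il18rap, Il1r1 and Il1rap. They were taken by name, with earlier results of these data known. All 5 were present among the 19404 genes of the E15.5 table and among the 26244 genes of the E19.5 table. The cells came from the embryonic thymus of a mouse strain that the labels name 5x polychromILC and that every group shared, and they were flow-sorted for bulk RNA-seq. The labels do not list the alleles of this strain. At E19.5 the groups were DN1 cells gated as BCL11blowID2low, BCL11b+ID2+ and BCL11b-ID2+, DN2 cells, and DN1 cells gated as BCL11b+ID2- and BCL11b-ID2-, with 3 libraries each. At E15.5 they were DN1 cells gated as BCL11b+ID2+ and BCL11b-ID2+, DN2 cells, and DN1 cells gated as BCL11b+ID2- and BCL11b-ID2-, with 3 libraries each except 2 for DN2. The labels name no treatment. Whether the libraries of 1 gate stem from different animals is not in the labels, and p-values here therefore reflect library-to-library spread, which could be technical.

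DN1 and DN2 name the earliest thymocyte stages that lack CD4 and CD8. BCL11b is a transcription factor needed for commitment of thymocytes to the T lineage, and ID2 is an inhibitor of E proteins on which innate lymphoid cells (ILCs) depend. A receptor of the IL-1 family works as a pair: a chain that binds the cytokine recruits a second, accessory chain, and the joined intracellular TIR domains recruit MyD88, which leads through IRAK kinases and TRAF6 to NF-kB. Il1rl1 encodes ST2, the chain that binds IL-33, a cytokine to which ILC2s, mast cells and regulatory T cells are known to respond. Il18r1 encodes the chain that binds IL-18, and Il18rap encodes its own accessory chain, a pair best known from NK cells, ILC1s and type 1 T cells. Il1r1 encodes the chain that binds IL-1, a receptor well known on type 3 ILCs and on IL-17-producing γδ T cells. Il1rap encodes the accessory chain that ST2 and the IL-1 receptor share.

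In GRCm38, 4 of the 5 genes lie in a cluster on the plus strand of chromosome 1, where Il1rl1, Il18r1 and Il18rap follow each other directly. In GENCODE M21, Il1r1 spans chr1:40225080-40317257, Il1rl1 spans chr1:40429570-40465415, Il18r1 spans chr1:40465552-40500854 and Il18rap spans chr1:40515362-40551705. Only 136 bases separate the annotated end of Il1rl1 from the start of Il18r1, and 14507 bases separate Il18r1 from Il18rap. Il1rap lies apart, on the plus strand of chr16:26581704-26730117. The cluster on chromosome 1 also holds 2 receptor genes that are not members, Il1r2, a decoy receptor for IL-1, and Il1rl2, the receptor for IL-36, which lies between Il1r1 and Il1rl1.

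The sequences before the starts of the 3 adjacent genes are shown because these neighbours, as given below, stood at different levels in the same gates. They were read from RefSeq for GRCm38.p6, plus strand, 5′ to 3′. Capitals mark every match, on either strand, to the letters AGATAA, the letters AGATAG, the letters TGATAA and the letters TGATAG, which are spellings of the motif that GATA factors bind.
Il1rl1, the 250 bases before its first start, chr1:40429320-40429569: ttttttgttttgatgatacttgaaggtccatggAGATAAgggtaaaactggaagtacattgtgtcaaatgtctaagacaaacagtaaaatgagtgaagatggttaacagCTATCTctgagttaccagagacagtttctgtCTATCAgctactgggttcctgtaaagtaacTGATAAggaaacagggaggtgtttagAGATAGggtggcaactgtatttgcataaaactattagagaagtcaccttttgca
Il18r1, the 136 bases between it and Il1rl1, chr1:40465416-40465551: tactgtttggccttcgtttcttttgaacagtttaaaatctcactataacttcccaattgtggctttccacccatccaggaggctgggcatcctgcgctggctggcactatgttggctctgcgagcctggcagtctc
Il18rap, the 250 bases before its start, chr1:40515112-40515361: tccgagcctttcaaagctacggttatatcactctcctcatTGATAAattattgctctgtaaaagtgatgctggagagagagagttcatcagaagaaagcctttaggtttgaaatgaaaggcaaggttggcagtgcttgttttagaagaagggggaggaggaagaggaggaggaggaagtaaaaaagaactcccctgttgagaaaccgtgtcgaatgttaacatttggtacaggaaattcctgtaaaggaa
The Il1rl1 stretch held 5 such matches, the Il18r1 stretch 0 and the Il18rap stretch 1, with no overlap between matches. The 250 bases before a second, inner start of Il1rl1, which overlap an Il1rl1 exon and are not shown, held 1. Of all 32851 start-site windows in the RefSeq table, 26.5% held at least 1 match in the 250 bases before the start, and 14.5% held one in the last 136 bases. At least 5 matches in 250 bases were held by 14 windows (0.0426%), that of Il1rl1 among them. That threshold was taken from the Il1rl1 count itself, so the share is a description and not a test. Another 4 motifs were searched on both strands and are not capitalised. The E-box CANNTG matched at 2 places before Il1rl1, 1 before Il18r1 and 1 before Il18rap, against 66.2% of windows with a match at 250 bases and 44.3% at 136. The RUNX letters TGTGGT, or with C as the last letter, matched at 1 place, before Il18r1 (27.4% of windows at 250 bases, 15.8% at 136). The ETS letters AGGAAG, or with C as the first letter, matched at 2 places, before Il18rap (39.2% and 26.2%), and the T-box letters GGTGTG matched in none of the 3 stretches (16.3% and 9.32%). GC content was 37.6% before Il1rl1, 50.7% before Il18r1 and 42.0% before Il18rap, whereas it was 74.4% in the 250 bases before Il1rap. A match is a run of letters and not a bound site, and binding was not measured here.

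The values are DESeq-normalised read counts, called normalised counts below, and they were normalised separately at each stage, so levels are compared within a stage only. Recovered depth was 12030749 to 20709387 reads in the E15.5 libraries and 2599470 to 9498133 in those of E19.5. Mitochondrial ribosomal RNA took 50.8% to 80% of these reads at the earlier stage and 28.7% to 58.8% at the later one. Tests used limma on log2 of the value plus 1, with all gates of a stage in a single model and Benjamini-Hochberg adjustment over all 10289 genes tested at E15.5 or all 13840 at E19.5. A gene passed at an adjusted p under 0.05, and every adjusted p below comes from this fit. All 5 members passed the filter on low values at both stages. The sort genes followed the E19.5 gates: Id2 averaged 169 normalised counts in the BCL11blowID2low gate, 1119 in the BCL11b+ID2+ gate, 1438 in the BCL11b-ID2+ gate and under 22 elsewhere. Bcl11b averaged 448 in the BCL11blowID2low gate, 515 in BCL11b+ID2+, 26.7 in BCL11b-ID2+, 692 in DN2, 1674 in BCL11b+ID2- and 16.3 in BCL11b-ID2-. At E15.5 both genes varied more between libraries: Id2 ranged from 85.0 to 2771 in BCL11b+ID2+ and from 763 to 2487 in BCL11b-ID2+, and from 3.68 to 17.1 in DN2, 0 to 4.35 in BCL11b+ID2- and 17.5 to 126 in BCL11b-ID2-. Bcl11b ranged there from 1432 to 5511 in BCL11b+ID2+, 7.03 to 509 in BCL11b-ID2+, 871 to 2351 in DN2, 927 to 4467 in BCL11b+ID2- and 6.39 to 39.6 in BCL11b-ID2-. Cd4 transcripts were low but present at E19.5, with means between 4.26 in DN2 cells and 176 in the BCL11blowID2low gate, and Cd8a averaged between 6.57 in DN2 cells and 437 in the BCL11b+ID2- gate. In these bulk samples, fewer cells of a type and less RNA per cell cannot be told apart.

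At E19.5, Il1rl1 marked the BCL11b+ID2+ gate. Its 3 libraries held 3187, 3755 and 3931 normalised counts, and its mean level of 526 per kb of annotated exon was the highest of any member in any gate at that stage. The BCL11b-ID2+ libraries held 111, 134 and 151, and the BCL11blowID2low libraries held 1.66, 1.12 and 2.42. DN2 cells held 4.24, 0 and 1.45, the BCL11b+ID2- libraries held 0, 0 and 1.85, and the BCL11b-ID2- libraries held 41.5, 71.6 and 21.1. Every BCL11b+ID2+ library was thus above every library of the other gates. The order below it was BCL11b-ID2+, then BCL11b-ID2-, without overlap between their libraries, and then DN2, BCL11blowID2low and BCL11b+ID2-, whose ranges overlapped near 0.

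Against the BCL11b+ID2- gate, Il1rl1 was 11.32 ± 0.70 log2 units (SE) higher in the BCL11b+ID2+ gate (adjusted p = 2.22e-10). The BCL11b+ID2- gate held only 2 reads of the gene, so the ratio of means, 5894-fold, has a 95% counting interval of 1632 to 48670. Among ID2-positive cells, Il1rl1 was 27.4-fold higher in the BCL11b+ID2+ gate than in the BCL11b-ID2+ gate (log2 difference 4.77 ± 0.70 SE, adjusted p = 7.88e-05). Among ID2-negative cells the direction was the opposite: Il1rl1 was lower in the BCL11b+ID2- gate than in the BCL11b-ID2- gate, 0.615 ± 1.07 against 44.7 ± 25.4 normalised counts (SD, n = 3 each, log2 difference -4.85, adjusted p = 3.23e-05). Among BCL11b-negative cells the ID2-positive gate was 2.96-fold above the ID2-negative one without overlap, and this did not pass in limma (adjusted p = 0.11) but did in edgeR and DESeq2.

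Il1rl1 is also a known mast cell transcript, and a list of 9 mast cell and basophil markers was read beside it. Their summed level was 28.4 to 139 normalised counts in the BCL11b+ID2+ libraries, 1645 to 1734 in the BCL11b-ID2+ libraries and 485 to 731 in the BCL11b-ID2- libraries. In the BCL11b+ID2+ gate 5 of the 9 were detected, Hdc (mean 30.9), Cpa3 (28.5), Tpsb2 (13.3), Mcpt4 (13.2) and Cma1 (1.47), and Ms4a2, Fcer1a, Mcpt8 and Gata2 were at 0 in all 3 libraries. Their part in the Il1rl1 level of this gate was not tested. Gata2 averaged 69.4 in the BCL11b-ID2+ gate and 88.5 in the BCL11b-ID2- gate, the gates with the lower but clear Il1rl1 levels, and its part in those levels was not tested. Of 8 ILC2 markers, a list that contains Il1rl1 itself, 8 were detected in the BCL11b+ID2+ gate, with sums of 5660 to 6442. Il1rl1 alone averaged 3624 there, so these sums in large part restate its own level. In the BCL11b-ID2+ gate 7 of the 8 were detected, with sums of 540 to 711. In the BCL11b+ID2- gate 5 were detected, with sums of 771 to 1022. Macrophage and monocyte markers were also present in the BCL11b+ID2+ gate, with sums of 631 to 1798 over 9 genes, against 15.6 to 47.1 in the BCL11b+ID2- gate, and their part in the Il1rl1 difference was not tested.

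**Figure D1:**
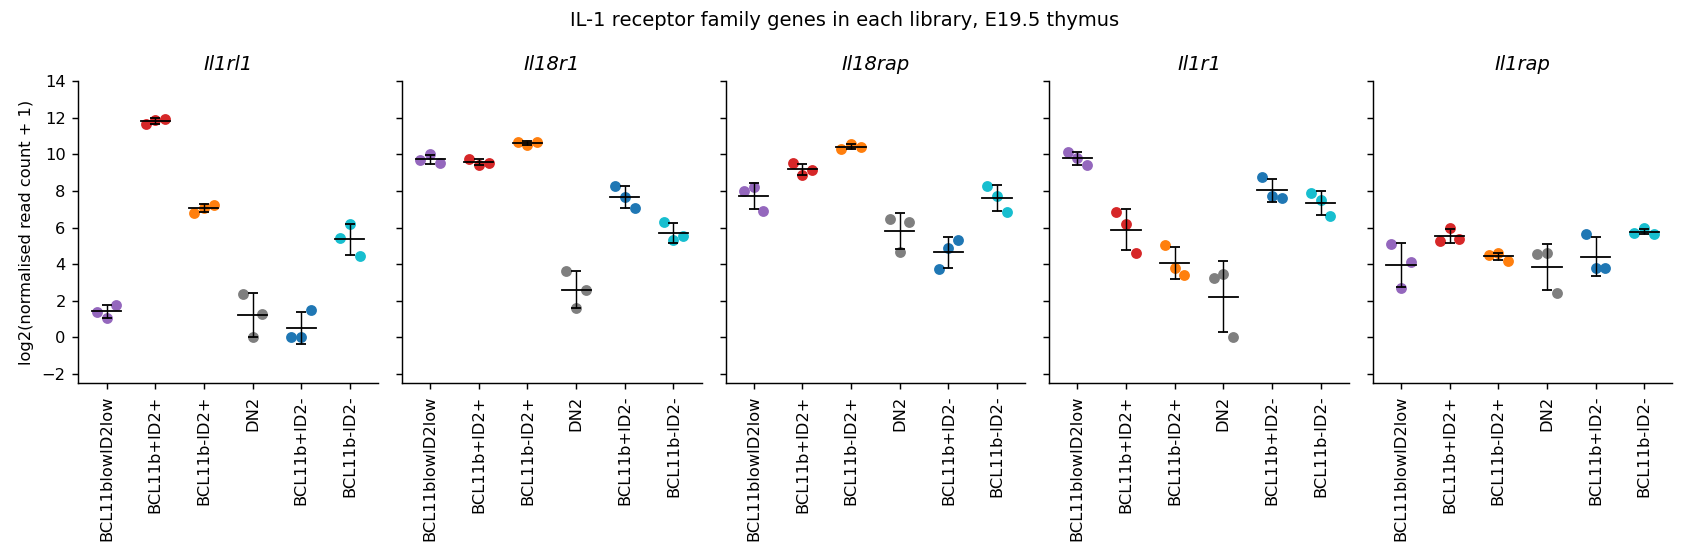
Each point is 1 library at E19.5, the horizontal line is the mean of the 3 log2 values and the bar is 1 SD, on the log2 scale of the normalised count plus 1, with gates along the horizontal axis. Il1rl1 stands out in BCL11b+ID2+ and Il1r1 in BCL11blowID2low. Both IL-18 receptor genes are highest in BCL11b-ID2+, with Il18r1 also high in BCL11blowID2low and BCL11b+ID2+, while Il1rap is low in all 6 gates.

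The IL-18-binding chain was spread more widely at E19.5. Il18r1 held 813, 1020 and 735 normalised counts in the BCL11blowID2low libraries, 865, 693 and 724 in the BCL11b+ID2+ libraries, and 1660, 1471 and 1605 in the BCL11b-ID2+ libraries. DN2 cells held 11.3, 1.998 and 5.09, the BCL11b+ID2- libraries held 305, 199 and 136, and the BCL11b-ID2- libraries held 78.1, 38.3 and 45.1. The BCL11b-ID2+ gate was highest in every library, the BCL11blowID2low and BCL11b+ID2+ gates overlapped beneath it, and the remaining gates followed without overlap in the order BCL11b+ID2-, BCL11b-ID2- and DN2.

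Il18r1 was 3.56-fold higher in the BCL11b+ID2+ gate than in the BCL11b+ID2- gate (log2 difference 1.90 ± 0.40 SE, adjusted p = 0.00279) and 29.3-fold higher in the BCL11b-ID2+ gate than in the BCL11b-ID2- gate (4.91 ± 0.40, adjusted p = 6.9e-09). Among ID2-negative cells it was 3.96-fold higher in the BCL11b+ID2- gate than in the BCL11b-ID2- gate (adjusted p = 0.00134). From DN1 to DN2 the gene was 34.8-fold lower in DN2 cells than in the BCL11b+ID2- gate (adjusted p = 4.06e-09). The BCL11blowID2low gate was 15.9-fold above the BCL11b-ID2- gate (adjusted p = 2.27e-07) and 4.01-fold above the BCL11b+ID2- gate (adjusted p = 0.00238), but did not pass against BCL11b+ID2+ (adjusted p = 0.901) or BCL11b-ID2+ (adjusted p = 0.2). BCL11b+ID2+ against BCL11b-ID2+ did not pass either, with a 2.08-fold lower mean and no overlap between the libraries (adjusted p = 0.151). It did pass in edgeR's quasi-likelihood test and in DESeq2, and over the alternatives its adjusted p ranged from 0.00103 to 0.226.

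The accessory chain of the IL-18 receptor followed another order. Il18rap held 259, 293 and 119 normalised counts in the BCL11blowID2low libraries, 725, 471 and 562 in the BCL11b+ID2+ libraries, and 1247, 1496 and 1325 in the BCL11b-ID2+ libraries. DN2 cells held 86.2, 24.6 and 77.03, the BCL11b+ID2- libraries held 12.2, 28.9 and 39.7, and the BCL11b-ID2- libraries held 309, 211 and 116. BCL11b-ID2+ was again highest and BCL11b+ID2+ next, both without overlap, while BCL11blowID2low overlapped with BCL11b-ID2- and DN2 overlapped with BCL11b+ID2-, the lowest.

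Il18rap was 21.8-fold higher in the BCL11b+ID2+ gate than in the BCL11b+ID2- gate (log2 difference 4.52 ± 0.47 SE, adjusted p = 7.82e-07) and 6.40-fold higher in the BCL11b-ID2+ gate than in the BCL11b-ID2- gate (2.78 ± 0.47, adjusted p = 0.000177). It was 8.31-fold higher in the BCL11blowID2low gate than in the BCL11b+ID2- gate (adjusted p = 0.000286) and 6.07-fold lower in the BCL11blowID2low gate than in the BCL11b-ID2+ gate (adjusted p = 0.000427). The 2 chains parted among the ID2-negative DN1 cells. There Il18rap was 7.88-fold lower in the BCL11b+ID2- gate than in the BCL11b-ID2- gate (log2 difference -2.97 ± 0.47 SE, adjusted p = 9.49e-05), while Il18r1, as given above, was higher. Neither direction changed under any alternative setting or with any library left out.

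Because the chains differ in length, their balance was read per kilobase of annotated exon, 4.82 kb for Il18r1 and 6.75 kb for Il18rap. On that scale the ratio of the Il18rap level to the Il18r1 level was 0.227, 0.205 and 0.115 in the BCL11blowID2low libraries, 0.597, 0.485 and 0.554 in the BCL11b+ID2+ libraries, and 0.536, 0.726 and 0.589 in the BCL11b-ID2+ libraries. It was 5.44, 8.80 and 10.8 in DN2 cells, 0.0284, 0.103 and 0.209 in the BCL11b+ID2- libraries, and 2.82, 3.93 and 1.84 in the BCL11b-ID2- libraries. The accessory chain was thus the more abundant transcript per length in every BCL11b-ID2- and DN2 library, and the less abundant one in every library of the other gates. In DN2 cells the ratio rests on 204 reads of Il18rap and 18 reads of Il18r1 over the 3 libraries.

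**Figure D2:**
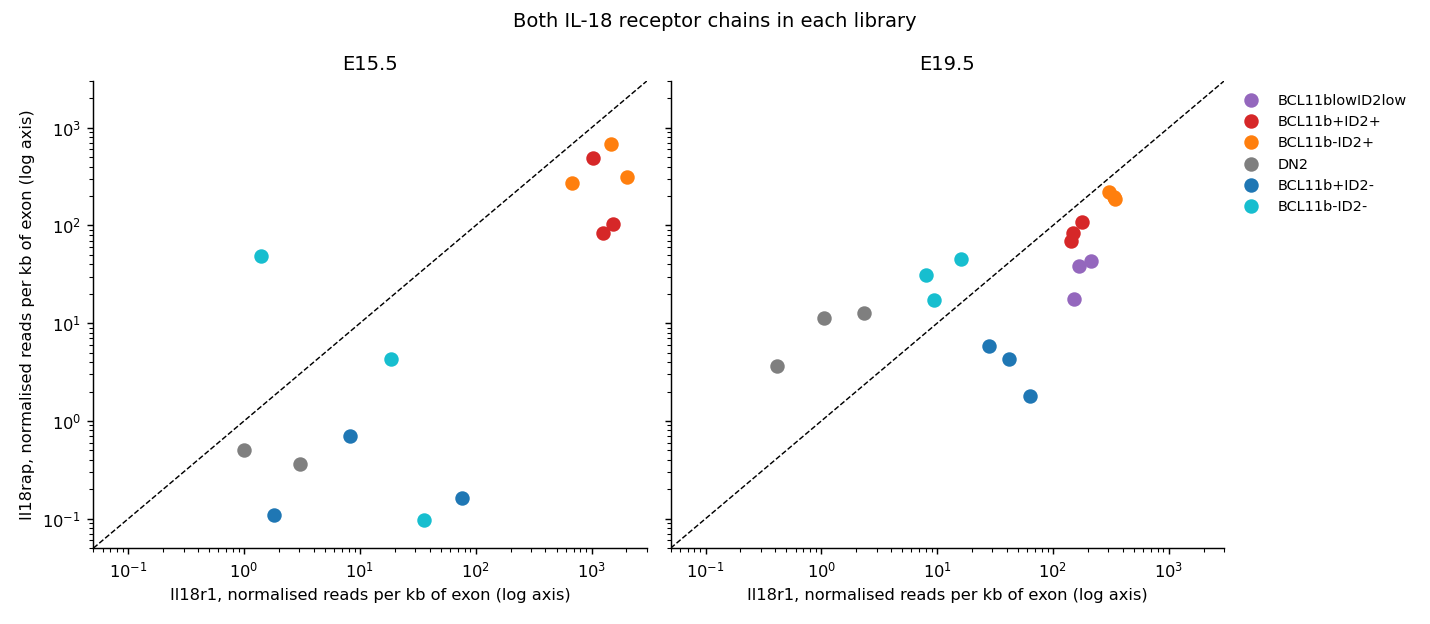
Each point is 1 library at E15.5 (left) or E19.5 (right), with Il18r1 along the horizontal axis and Il18rap along the vertical axis in normalised reads per kb of exon, both on log axes, and the dashed line marks equal levels. At E19.5 every BCL11b-ID2- and DN2 library lies above the line and every library of the other gates below it.

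NK cells are a known source of both IL-18 receptor transcripts, and the markers of NK cells and ILC1s were high where the pair was highest. Their sums over 7 genes were 1623 to 2058 normalised counts in the BCL11blowID2low libraries, 625 to 1285 in the BCL11b+ID2+ libraries and 15320 to 18670 in the BCL11b-ID2+ libraries. They were 862 to 1801 in DN2 cells, 4779 to 6015 in the BCL11b+ID2- libraries, where Gzma alone averaged 4968, and 109 to 250 in the BCL11b-ID2- libraries. Ncr1, a marker on this list, averaged 582 in the BCL11b-ID2+ gate and was at 0 in the BCL11blowID2low gate and in DN2 cells. The part of such cells in the Il18r1 and Il18rap levels was not tested.

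Il1r1 marked the BCL11blowID2low gate at E19.5. Its libraries there held 1119, 872 and 686 normalised counts, against 112, 73.0 and 23.7 in the BCL11b+ID2+ libraries and 32.3, 13.1 and 9.45 in the BCL11b-ID2+ libraries. DN2 cells held 8.48, 9.99 and 0, the BCL11b+ID2- libraries held 434, 213 and 194, and the BCL11b-ID2- libraries held 233, 181 and 98.0. All 3 BCL11blowID2low libraries were above every other library, and each following pair of neighbours in the order BCL11b+ID2-, BCL11b-ID2-, BCL11b+ID2+, BCL11b-ID2+ and DN2 overlapped.

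In the BCL11blowID2low gate Il1r1 was 12.8-fold higher than in the BCL11b+ID2+ gate (log2 difference 3.89 ± 0.72 SE, adjusted p = 0.00178) and 48.8-fold higher than in the BCL11b-ID2+ gate (5.69 ± 0.72, adjusted p = 9.57e-06). Against BCL11b-ID2- it was 5.23-fold higher (adjusted p = 0.0243), a call lost without BCL11blowID2low library 1 or 2 or BCL11b-ID2- library 2 or 4, where the adjusted p reached 0.116. Against BCL11b+ID2- it was 3.18-fold higher without overlap, which did not pass (adjusted p = 0.153). That difference did pass with a pseudocount of 8, in DESeq2, with only the gates compared and with a replicate block. Over the alternatives its adjusted p ranged from 0.0248 to 0.243. Il1r1 was 45.5-fold lower in DN2 cells than in the BCL11b+ID2- gate (log2 difference -5.80 ± 0.72 SE, adjusted p = 4.49e-06). It was 9.33-fold lower in the BCL11b-ID2+ gate than in the BCL11b-ID2- gate (adjusted p = 0.00251). Among BCL11b-positive cells the mean was 4.03-fold lower in the ID2-positive gate, which did not pass (adjusted p = 0.0669) but did in edgeR and DESeq2.

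Markers of γδ T cells were highest at E19.5 in the 2 gates in which Il1r1 was highest. Their sums over 5 genes were 7075 to 8249 normalised counts in the BCL11blowID2low libraries, 2804 to 3125 in the BCL11b+ID2+ libraries and 368 to 481 in the BCL11b-ID2+ libraries. They were 2885 to 4351 in DN2 cells, 9068 to 11120 in the BCL11b+ID2- libraries and 605 to 658 in the BCL11b-ID2- libraries. Trdc, the constant gene of the δ chain, averaged 2510 in the BCL11blowID2low gate and 2971 in the BCL11b+ID2- gate, so Il1r1 and these markers did not rank these gates alike. The part of γδ T cells in the Il1r1 level was not tested.

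Il1rap, the shared accessory chain, was low in every gate at E19.5. It held 33.2, 5.59 and 16.1 normalised counts in the BCL11blowID2low libraries, 37.4, 60.8 and 40.2 in the BCL11b+ID2+ libraries, and 21.6, 23.0 and 17.1 in the BCL11b-ID2+ libraries. DN2 cells held 22.6, 23.3 and 4.36, the BCL11b+ID2- libraries held 48.6, 12.9 and 12.9, and the BCL11b-ID2- libraries held 51.2, 60.8 and 49.9. Each neighbour in the order of means overlapped with the next, and none of the 10 comparisons passed, the lowest adjusted p being 0.116, for BCL11blowID2low against BCL11b-ID2-. The interaction described below passed for Il1rap only with library weights (adjusted p = 0.0352, against 0.157). Per kilobase of exon, 11.36 kb for Il1rap and 6.89 kb for Il1rl1, the Il1rap level in the BCL11b+ID2+ gate was 4.06 against 526 for Il1rl1, a ratio of 0.00773. In the BCL11blowID2low gate the Il1rap level was 1.61 per kb against 140.2 for Il1r1, a ratio of 0.0115. Reads of Il1rap numbered 137 and 45 over the 3 libraries of these gates, so its levels there carry more counting error than those of its partners.

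Of the 50 member tests at E19.5, 24 passed. The members were chosen with earlier results of these data known, so the shares over all genes beside their calls are a description. In BCL11b+ID2+ against BCL11b+ID2-, 3 of the 5 members passed, all higher (Il1rl1, Il18r1 and Il18rap), against 8.73% of all genes tested. In BCL11b-ID2+ against BCL11b-ID2-, 3 passed, Il18r1 and Il18rap higher and Il1r1 lower, against 15.9% of all genes. In BCL11b+ID2- against BCL11b-ID2-, 3 passed, Il18r1 higher and Il1rl1 and Il18rap lower, against 14.9%. In BCL11b+ID2+ against BCL11b-ID2+, only Il1rl1 passed, against 6.03%. In DN2 against BCL11b+ID2-, Il18r1 and Il1r1 were lower, against 16.2%.

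The BCL11blowID2low gate gave 10 of the 24 calls. Against BCL11b-ID2-, Il18r1 and Il1r1 were higher and Il1rl1 was lower (25.8-fold, adjusted p = 0.000341), against 14% of all genes. Against BCL11b+ID2-, Il18r1 and Il18rap were higher, against 6.91%. Against BCL11b+ID2+, Il1r1 was higher and Il1rl1 was 2091-fold lower (log2 difference -10.40 ± 0.70 SE, adjusted p = 1.72e-09), against 4.43%. Against BCL11b-ID2+, Il1r1 was higher and Il1rl1 (76.3-fold, adjusted p = 7.95e-06) and Il18rap were lower, against 8.57%. The BCL11blowID2low gate held only 5 reads of Il1rl1 over its libraries, so the Il1rl1 folds given here carry a large counting error. Il1rl1, nearly absent, and Il1r1, at its peak, thus stood at opposite ends in this gate. Il18r1, however, was there at a level not told apart from that of BCL11b+ID2+.

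**Figure D3:**
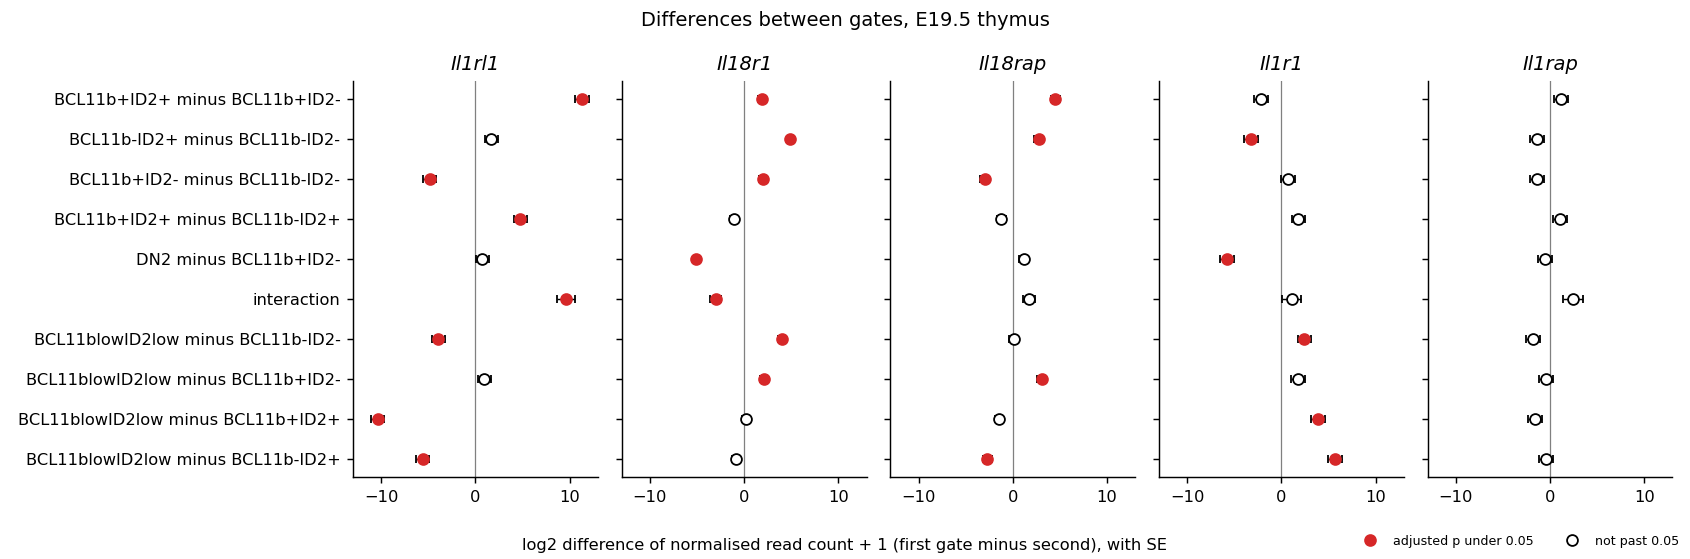
Log2 differences of each member between gates at E19.5, first gate minus second, with bars for the SE; filled points passed at an adjusted p under 0.05 in limma and open points did not. Il1rl1 spans the widest range, from -10.40 to 11.32, and Il1rap has no filled point.

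Whether the ID2 difference itself differed between BCL11b-positive and BCL11b-negative gates was tested by an interaction term. It takes BCL11b+ID2+ minus BCL11b+ID2- and subtracts from it BCL11b-ID2+ minus BCL11b-ID2-. At E19.5, 2 of the 5 members passed, against 9.28% of all genes tested, and in opposite directions. For Il1rl1 the ID2 difference was larger among BCL11b-positive cells, 11.32 against 1.7 log2 units (interaction 9.62 ± 0.99 SE, adjusted p = 1.01e-06). For Il18r1 it was smaller among BCL11b-positive cells, 1.90 against 4.91 (interaction -3.01 ± 0.56 SE, adjusted p = 0.00114). Il18rap had 4.52 against 2.78 (interaction 1.74 ± 0.67 SE), which did not pass (adjusted p = 0.11). Il1r1 and Il1rap did not pass either, with adjusted p = 0.586 and 0.157.

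At E15.5 the IL-18 receptor genes separated the ID2-positive gates from the rest, and Il1rl1 varied from library to library. Il18r1 held 4915, 6036 and 7306 normalised counts in the BCL11b+ID2+ libraries and 7117, 9734 and 3264 in the BCL11b-ID2+ libraries. DN2 cells held 4.78 and 14.7, the BCL11b+ID2- libraries held 8.74, 370 and 39.6, and the BCL11b-ID2- libraries held 89.5, 172 and 6.74. The 6 ID2-positive libraries lay above all others, and the ID2-negative and DN2 ranges overlapped. Il18r1 was 43.7-fold higher in BCL11b+ID2+ than in BCL11b+ID2- (log2 difference 6.83 ± 1.41 SE, adjusted p = 0.0201) and 75.1-fold higher in BCL11b-ID2+ than in BCL11b-ID2- (6.95 ± 1.41, adjusted p = 0.0188). Its difference between the BCL11b+ID2+ and BCL11b-ID2+ gates was -0.02 ± 1.41 log2 units.

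Il18rap held 3278, 560.2 and 695 normalised counts in the BCL11b+ID2+ libraries and 4585, 2089 and 1833 in the BCL11b-ID2+ libraries at E15.5. DN2 cells held 3.42 and 2.45, the BCL11b+ID2- libraries held 0.729, 1.09 and 4.75, and the BCL11b-ID2- libraries held 29.1, 0.660 and 326. Again all ID2-positive libraries lay above the others. The difference passed for BCL11b+ID2+ against BCL11b+ID2- (log2 difference 8.63 ± 1.87 SE, adjusted p = 0.0274), where the lower gate held 5 reads in all, and not for BCL11b-ID2+ against BCL11b-ID2- (6.68 ± 1.87, adjusted p = 0.126). Per kilobase, Il18rap was the less abundant chain in the ID2-positive gates here too, at 0.476, 0.0662 and 0.0679 of the Il18r1 level in the BCL11b+ID2+ libraries and 0.460, 0.153 and 0.401 in the BCL11b-ID2+ libraries. BCL11b+ID2+ library 1 stood well above the others of its gate. The ratio was 0.232, 0.00274 and 34.5 in the BCL11b-ID2- libraries and 0.51 and 0.119 in the DN2 libraries. It was 0.0595, 0.0021 and 0.0856 in the BCL11b+ID2- libraries. The DN2 ratios rest on 7 reads of Il18rap and 19 of Il18r1. The excess of Il18rap in every BCL11b-ID2- and DN2 library at E19.5 was thus not seen at E15.5. Markers of NK cells and ILC1s summed to 725 to 2158 in the BCL11b+ID2+ libraries and 10650 to 12730 in the BCL11b-ID2+ libraries, so high Il18r1 levels stood beside both lower and higher levels of these markers, whose part was not tested.

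**Figure D4:**
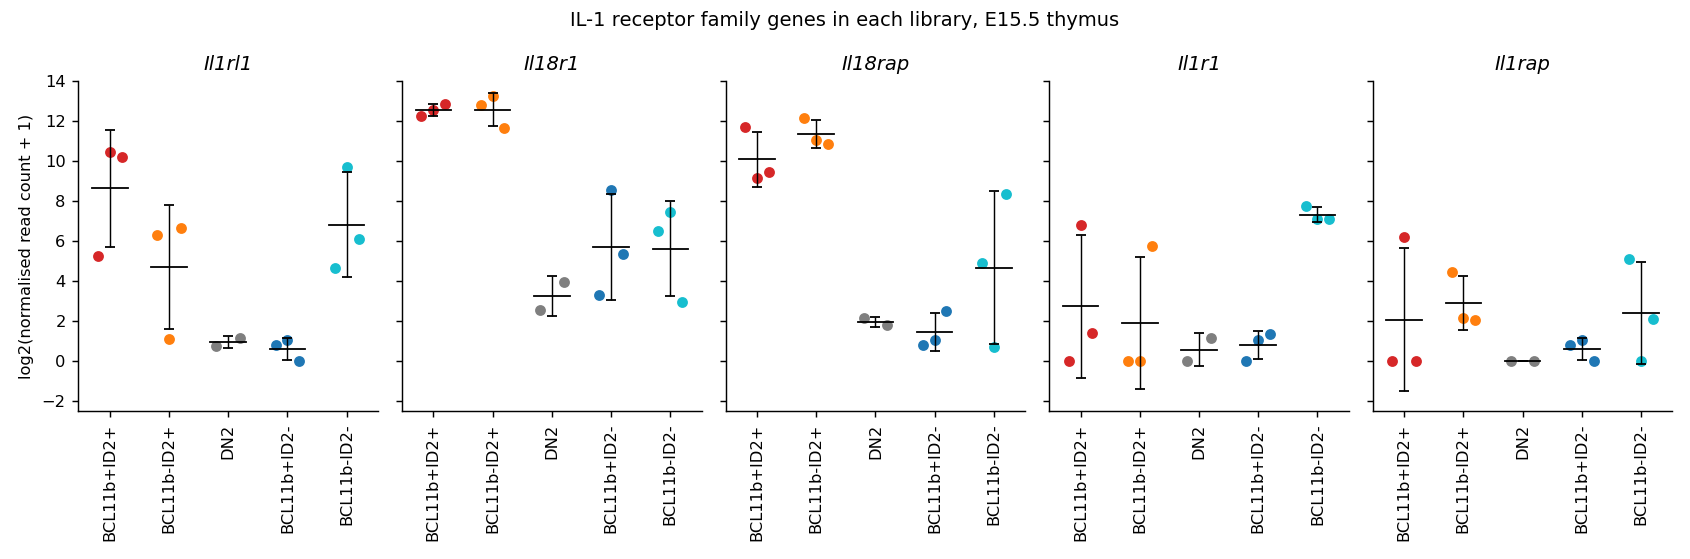
Each point is 1 library at E15.5, the horizontal line is the mean of the log2 values and the bar is 1 SD, on the log2 scale of the normalised count plus 1, for 3 libraries a gate and 2 for DN2. Il18r1 and Il18rap are high in all 6 ID2-positive libraries, whereas the 3 BCL11b+ID2+ libraries of Il1rl1 are spread between 37.0 and 1384 normalised counts.

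Il1rl1 at E15.5 held 37.0, 1384 and 1189 normalised counts in the BCL11b+ID2+ libraries and 78.3, 1.17 and 101 in the BCL11b-ID2+ libraries. DN2 cells held 0.683 and 1.23, the BCL11b+ID2- libraries held 0.729, 1.09 and 0, and the BCL11b-ID2- libraries held 24.2, 840 and 67.4. BCL11b+ID2+ library 1, the lowest of the 3 in Il1rl1, was also the lowest in Id2, with 85.0 normalised counts against 2771 in the highest. The BCL11b+ID2+ and BCL11b+ID2- libraries did not overlap, but the difference did not pass (log2 difference 8.02 ± 2.13 SE, adjusted p = 0.072), and without BCL11b+ID2+ library 1 it was 9.71 and did not pass either. It passed in DESeq2. Mast cell and basophil markers summed to 2.999 to 17.4 in the BCL11b+ID2+ libraries, 1140 to 4668 in the BCL11b-ID2+ libraries and 1244 to 2880 in the BCL11b-ID2- libraries. Macrophage and monocyte markers summed to 0 to 0.560 in the BCL11b+ID2+ libraries at this stage, with 8 of the 9 at 0. The interaction was 10.14 ± 3.02 SE and did not pass in limma (adjusted p = 0.585), but it too passed in DESeq2, and over the alternatives its adjusted p ranged from 1.8e-05 to 0.797.

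Il1r1 at E15.5 was found mainly in the BCL11b-ID2- gate, with 214, 136 and 136 normalised counts. The BCL11b+ID2+ libraries held 0, 110.3 and 1.64, the BCL11b-ID2+ libraries 0, 0 and 52.3, DN2 cells 0 and 1.23, and the BCL11b+ID2- libraries 0, 1.09 and 1.58. The BCL11b-ID2- libraries lay above all others, yet no comparison passed. The adjusted p was 0.363 for BCL11b-ID2+ against BCL11b-ID2- and 0.47 for BCL11b+ID2- against BCL11b-ID2-. Markers of γδ T cells summed to only 4131 to 8096 in the BCL11b-ID2- libraries. Their sums were 11410 to 64810 in BCL11b+ID2+, 1472 to 2724 in BCL11b-ID2+, 20370 to 20890 in DN2 and 14850 to 20730 in BCL11b+ID2-. The gate highest in Il1r1 was thus not among those highest in these markers at E15.5, and their part was not tested. Il1rap reached at most 72.8 in any E15.5 library, was at 0 in both DN2 libraries, and did not pass in any comparison.

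Of the 30 member tests at E15.5, 3 passed. Here too the shares over all genes are a description, because the members were chosen with earlier results known. In BCL11b+ID2+ against BCL11b+ID2-, 2 of 5 members passed, against 0.719% of all genes tested, and in BCL11b-ID2+ against BCL11b-ID2-, 1 passed, against 0.467%. In limma no member passed in BCL11b+ID2- against BCL11b-ID2-, where 0.00972% of all genes did, or in BCL11b+ID2+ against BCL11b-ID2+, where 0.0778% did, with 704 and 1057 genes at an unadjusted p under 0.05. DESeq2 gave an adjusted p for 23 of the 30 and called 8. They were those 3, Il1rl1 in BCL11b+ID2+ against BCL11b+ID2-, Il18rap in BCL11b-ID2+ against BCL11b-ID2-, and the Il1rl1 interaction. The others were Il1rl1 and Il18rap, both lower, in BCL11b+ID2- against BCL11b-ID2-. DESeq2 also called more genes of any kind. Over all genes it called 1089 in BCL11b+ID2+ against BCL11b+ID2-, where limma called 74. It called 414 in BCL11b-ID2+ against BCL11b-ID2- (limma 48) and 335 in BCL11b+ID2- against BCL11b-ID2- (limma 1). In DN2 against BCL11b+ID2- and in the interaction, limma called 0% of all genes, with 663 and 662 at an unadjusted p under 0.05, edgeR called 0 in both, and DESeq2 called 532 and 392. All 3 member calls were lost when single libraries were left out: Il18r1 among BCL11b-positive cells without any BCL11b+ID2+ library or without BCL11b+ID2- library 1 or 3 (adjusted p up to 0.106), Il18rap without BCL11b+ID2+ library 1 or 3 or any BCL11b+ID2- library (up to 0.105), and Il18r1 among BCL11b-negative cells without any BCL11b-ID2+ library or without BCL11b-ID2- library 1 or 3 (up to 0.141). Their log2 differences stayed between 5.61 and 9.16 with a library left out.

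The neighbours on chromosome 1 did not share a single pattern at E19.5. Il1rl1 ends 136 bases before Il18r1, whose printed stretch fills the gap, and in the BCL11blowID2low gate the mean level per kb of exon was 0.251 for Il1rl1 and 178 for Il18r1. In the BCL11b+ID2+ gate the same levels were 526 per kb for Il1rl1 and 158 per kb for Il18r1. Il1rl2, between Il1r1 and Il1rl1, was highest in the same gate as Il1r1, at 120 ± 27.1 in BCL11blowID2low, 49.4 ± 23.3 in BCL11b+ID2+, 40.3 ± 56.6 in BCL11b-ID2+, 20.5 ± 17.8 in DN2, 69.3 ± 30.7 in BCL11b+ID2- and 22.2 ± 12.97 in BCL11b-ID2-, and it did not pass in any comparison. Il1r2 averaged 8.56 or less in every gate. Over the 18 libraries, Pearson's r of the log2 values was 0.44 between Il1rl1 and Il18r1, 0.63 between Il18r1 and Il18rap, 0.76 between Il1rl1 and Il18rap, and -0.19 between Il1rl1 and Il1r1; these libraries share gates, and the values are a description.

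**Figure D5:**
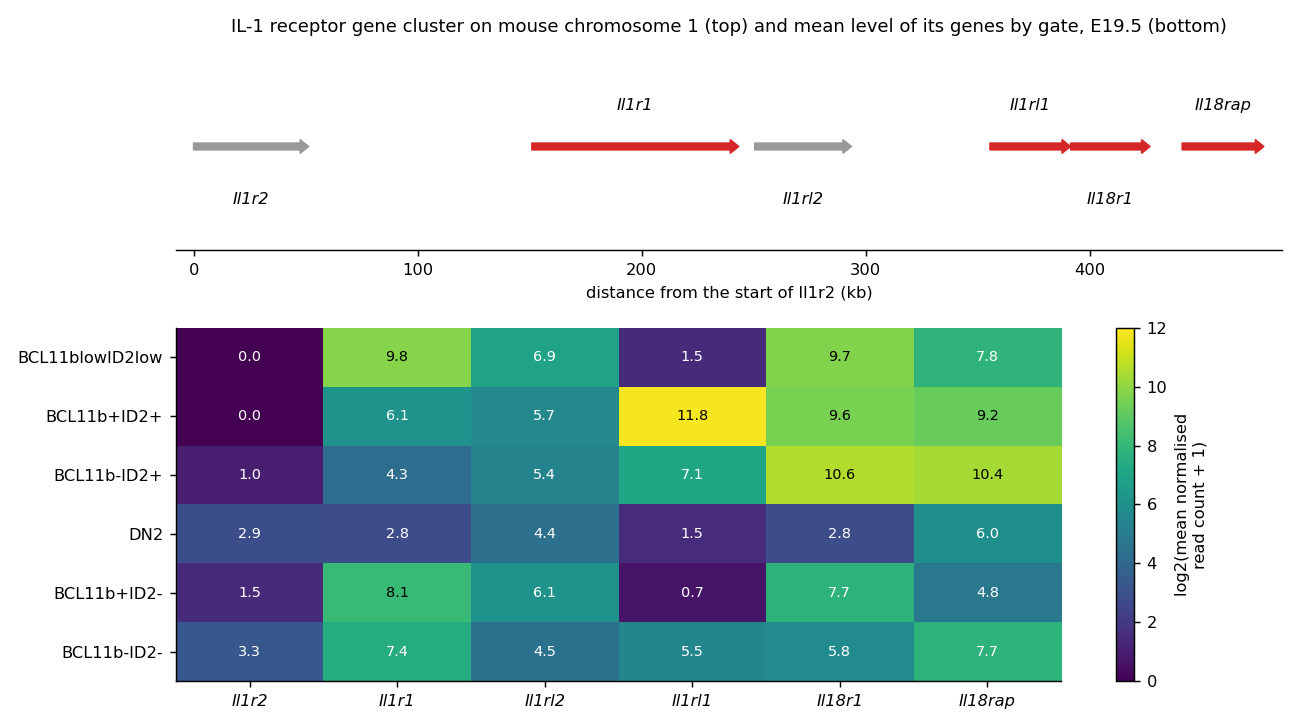
Top, the 6 IL-1 receptor genes of mouse chromosome 1 drawn to scale as arrows by distance from the start of Il1r2, in kb, with members in red and the other 2 genes in grey. Bottom, the log2 of the mean normalised count plus 1 in each E19.5 gate: Il1rl1 is bright in the BCL11b+ID2+ row, and its next neighbour Il18r1 is bright in 3 rows.

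The genes whose E19.5 pattern was most like each member were taken as the 3 with the highest Pearson's r over 18 libraries, among 6206 genes with a mean of at least 100 in their highest gate. For Il1rl1 they were Rnf128 (r = 0.945), Hs3st1 (0.933) and Pla2g16 (0.913). For Il18r1 they were Ccr2, a chemokine receptor (0.989), Laptm5 (0.981) and H2-D1, an MHC class I gene (0.979). For Il18rap they were Serpina3g (0.93), Dse (0.911) and Chn2 (0.896). For Il1r1 they were Cd6, a T-cell surface protein (0.867), Senp6 (0.857) and Il17re, an IL-17 receptor family gene (0.854). For Il1rap they were Fam117b (0.804), Ube2q1 (0.793) and Ifnar2, an interferon receptor chain (0.763). At E15.5, over 14 libraries and 7107 genes, the closest were Tmem38b for Il1rl1 (0.943), Myo6 for Il18r1 (0.939), Atp2b1 for Il18rap (0.951), Il6ra, an IL-6 receptor chain, for Il1r1 (0.918) and Hist1h2ac for Il1rap (0.862). Libraries of a gate share their source, so these are descriptions.

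The rest of the pathway was read from a list of 45 genes, of which 39 were in the E19.5 table and 30 could be tested. Ligands were scarce in the sorted cells. Il33 had 2 reads over all 18 libraries, both in the BCL11b-ID2- gate, and Il1b had 2 in BCL11blowID2low and 2 in BCL11b-ID2-. Il18 averaged 11.5 ± 8.83 normalised counts in the BCL11b+ID2+ gate and 14.99 ± 7.40 in the BCL11b-ID2- gate (SD, n = 3), and under 0.5 in the other gates. It was higher in BCL11b+ID2+ than in BCL11b+ID2- (adjusted p = 0.0474) and lower in BCL11b-ID2+ than in BCL11b-ID2- (adjusted p = 0.0121).

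Among signalling and cytokine genes the calls differed by comparison. In BCL11b+ID2+ against BCL11b+ID2-, 3 of the 30 pathway genes were higher and 0 lower, near the 8.73% of all genes called there, with a median log2 difference of 0.49 against 0 over all genes. They were Il18, Nfkb1, an NF-kB subunit (850 ± 196 against 427 ± 60.7 normalised counts, adjusted p = 0.0155), and Il13, a cytokine that IL-33 is known to induce (297 ± 188 against 5.53 ± 9.59, adjusted p = 0.00234). In BCL11b-ID2+ against BCL11b-ID2-, 8 were higher and 2 lower, where 15.9% of all genes were called, with a median of 0.54 against -0.01. Ifng, a cytokine that IL-18 is known to induce, stood at 169 ± 42.5 against 1.69 ± 1.96 (adjusted p = 1.87e-05), and Irak2, Tab2, Nfkb1, Nfkbia, Tnfaip3, Pycard and Il13 were the others that were higher, while Il18 and Casp1 were lower.

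Tnfaip3, which encodes the NF-kB feedback inhibitor A20, had its lowest mean in the BCL11b-ID2- gate, where its libraries overlapped with those of DN2. It averaged 269 ± 89.9 normalised counts in BCL11blowID2low, 935 ± 272 in BCL11b+ID2+, 649 ± 146 in BCL11b-ID2+, 112 ± 43.1 in DN2, 657 ± 190.2 in BCL11b+ID2- and 73.7 ± 28.1 in BCL11b-ID2-. In DN2 against BCL11b+ID2-, 8 pathway genes were lower and 1 higher, where 16.2% of all genes were called, with a median of -0.77 against -0.01 over all genes. The lower ones were Tnfaip3, Nfkb2, Rel, Nfkbia and Nfkbiz of the NF-kB group, Tab2, and the 2 negative regulators Sigirr (14.3 ± 8.54 against 80.9 ± 32.4, adjusted p = 0.00307) and Il18bp (7.93 ± 8.14 against 45.8 ± 27.5, adjusted p = 0.0156). Casp1, which cleaves the precursors of IL-1β and IL-18, was the higher one.

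In BCL11b+ID2- against BCL11b-ID2-, 4 of the 30 were higher (Tab2, Nfkb1, Nfkbia and Tnfaip3) and 3 lower (Il18, Irak1 and Casp1), where 14.9% of all genes were called. In BCL11b+ID2+ against BCL11b-ID2+, Ifng was lower and no other of the 30 passed, where 6.03% of all genes did. The interaction gave 2 positive calls (Il18 and Casp1) and 3 negative ones (Tab2, Tnfaip3 and Ifng), with 9.28% of all genes called. For BCL11blowID2low, 4 were higher (Tab2, Nfkb1, Nfkbia and Tnfaip3) and 2 lower (Il18 and Casp1) against BCL11b-ID2-, with 14% of all genes called. Tnfaip3 was the 1 gene called, as lower, against BCL11b+ID2- (6.91% of all genes) and against BCL11b+ID2+ (4.43%), and Rel, Tnfaip3 and Ifng were lower against BCL11b-ID2+ (8.57%). The calls against BCL11b+ID2-, BCL11b+ID2+ and BCL11b-ID2+ are thus near or below the share over all genes. At E15.5, 33 of the 45 were in the table, 22 were tested, and 1 passed over the 6 comparisons, in the one where 0.719% of all genes did: Tab2, a scaffold of the TAK1 kinase, higher in BCL11b+ID2+ than in BCL11b+ID2- (7930 ± 4451 against 908 ± 373, adjusted p = 0.0243).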

How the data were processed

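The authors sorted cells of the embryonic thymus, extracted RNA and made Ovation libraries, per the labels' protocols. Per the submitters' processing notes, Trim Galore 0.50, STAR 2.6.0a, GRCm38 and DESeq2 1.18.1 were used; the counting tool, annotation and strand setting are not given in the sources used here, so reads of a gene and an overlapping one cannot be told apart (Gm38070 lies within Il1r1, and Gm20319 opposite Il1rap). The deposited values are a normalised signal, DESeq-normalised read counts, in 1 table per stage. The 14 E15.5 columns carry only numbers and were matched to the barcode numbers in the descriptions. Dividing each column by the value of 1 read gave whole reads for 100% of values within 0.01 reads.

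Testing covered genes that reached 10 in 3 or more libraries of a stage, and used limma 3.58.1 (R 4.3.3, trend and robust moderation) on log2 of the value plus 1, without a replicate block. This scale understates differences of genes with few reads. Folds are ratios of means; with 1 to 3 reads in the lower gate a 95% counting interval is given, which covers counting error only. edgeR 4.0.16 and DESeq2 1.42.0 on the recovered reads were alternatives, with another pseudocount, no filter, TMM scaling, only the gates compared, a replicate block, library weights and each library left out. Stages were not tested against each other.

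The named genes are the members, pathway genes that passed, and the 3 genes most like each member (no predicted, ribosomal or mitochondrial genes among these). Members and lists were chosen with earlier results of these data known.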

Additional observations from a re-analysis of the deposited data

Results flagged for a closer look

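The ID2 difference of 2 members differed between the BCL11b-positive and BCL11b-negative gates at E19.5 by the interaction test in limma. For Il1rl1 the interaction was 9.62 log2 units (adjusted p = 1.01e-06), with an ID2 difference of 11.32 in BCL11b-positive and 1.7 in BCL11b-negative cells. For Il18r1 it was -3.01 (adjusted p = 0.00114), with 1.90 in BCL11b-positive and 4.91 in BCL11b-negative cells. Over the alternatives and with each library left out, the Il1rl1 interaction ranged from 7.20 to 10.66 and the Il18r1 interaction from -3.31 to -2.72, and all of these passed. All ID2-positive libraries were above the ID2-negative ones in these contrasts.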

How the results depend on the processing

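At E19.5 the members gave 24 calls, and 24 to 32 under the other settings. At E15.5 they gave 3 calls, and 1 with no filter on low values, 1 with only the gates compared and 1 with library weights. DESeq2 gave 8, from 23 tests with an adjusted p. The calls over all genes at E15.5 were 131, against 54 with no filter, 42 with only the gates compared and 3396 in DESeq2, and the calls over all genes at E19.5 were 14528, against 11937 to 16899. With each library left out, the member calls came to between 1 and 3 for E15.5 and between 23 and 26 for E19.5, and the calls over all genes to 56 to 137 and 12143 to 14755. Deviations from the gate means were compared between libraries of different gates. At E15.5 the median correlation was 0.0145 for pairs with the same replicate number and -0.00858 for pairs with different numbers. At E19.5 these medians were 0.0538 and -0.0205, and the same-number pairs ranged from 0.00202 to 0.129. The replicate number thus went with a weak shared deviation at E19.5, which the main fit did not model. With the number as a replicate block the member calls were 3 and 27, and the calls over all genes 102 and 16899. No member call changed its direction under any setting or with any library left out, and the cause of the lost and gained calls was not tested.

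Signs that turned belong to differences that did not pass. The difference Il1rap E15.5 BCL11b-ID2+ minus BCL11b-ID2- (0.48) became -0.00888 with a pseudocount of 8, -0.42 in edgeR and -0.42 in DESeq2, and ranged from -0.72 to 1.83 with a library left out. Il1rap E15.5 BCL11b+ID2+ minus BCL11b-ID2+ (-0.82) became 0.16, 1.57 and 1.41 under the same settings and 0.0618 with library weights, and ranged from -2.89 to 0.21. At E15.5, Il18r1 in BCL11b+ID2+ minus BCL11b-ID2+ (-0.02) became 0.16 with library weights and ranged from -0.47 to 0.32. With TMM scaling Il18r1 became -0.015 in BCL11b+ID2- minus BCL11b-ID2- (range -1.32 to 1.31) and 0.012 in the interaction (range -1.33 to 1.295). Il1r1 in DN2 minus BCL11b+ID2- became 0.12 with the replicate block (range -0.81 to 0.34). Leaving out a library also turned Il1r1 in BCL11b+ID2+ minus BCL11b+ID2- (-0.11 to 3.29) and minus BCL11b-ID2+ (-1.21 to 2.73), and Il1rap in BCL11b+ID2+ minus BCL11b+ID2- (-0.62 to 2.48) and the interaction (-1.10 to 2.18). At E19.5, Il18rap in BCL11blowID2low minus BCL11b-ID2- became -0.075 with library weights (range -0.29 to 0.49), and Il1rap ranged from -0.998 to 0.19 in BCL11blowID2low minus BCL11b+ID2-, -1.01 to 0.18 in BCL11blowID2low minus BCL11b-ID2+ and -0.92 to 0.17 in DN2 minus BCL11b+ID2-. Reads of Il1rap numbered 0 to 130 per gate at the earlier stage and 45 to 178 at the later one.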
